A study of Mus musculus with 4 samples.

Results

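The genes described here encode the protein subunits of the cytosolic ribosome and of the ribosome inside mitochondria. They were chosen by symbol: Rpl or Rps followed by a digit (without Rps6k kinases and symbols with -ps), Rplp0 to Rplp2, Rpsa, and Mrpl or Mrps followed by a digit. Each gene was read from its brightest probe set with a single gene symbol. This gave 140 of the 19938 genes on the array, 63 cytosolic (25 small subunit, 38 large subunit) and 77 mitochondrial (29 small, 48 large). The subunit was read from the symbol alone, s for small and l for large, not from the place of the protein in the ribosome. The symbol rule also takes in 6 genes that are not known as subunits, namely Rps19bp1 (a binding protein of RPS19), the retrogene Rps23rg1, Rps4l (a transcribed pseudogene in RefSeq), Rpl32l, Rpl7l1 and Mrps36, a protein of the oxoglutarate dehydrogenase complex.

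The data were 1 microarray for each of 4 cultures of mouse bone marrow cells grown with the growth factor GM-CSF at 20 ng/ml in medium with 10% serum. The marrow came from Bach1 -/- and Bach1 +/+ mice, all on the B6 background. For each genotype 1 culture was given heme and 1 was given vehicle. Heme was added after 6 days at 40 µM (written with a small m in the labels), the vehicle was 0.15 M NaCl with 10% NH4OH, and RNA was taken 24 hours later from the cells that still adhered. With 1 array in each group there is no replicate error, and differences below carry no p-value. The labels do not say how many mice gave the marrow, nor which part of Bach1 was deleted. Bach1, the heme-binding repressor, read 204 in KO heme, 211 in KO vehicle, 264 in WT heme and 212 in WT vehicle. This signal does not separate the genotypes and checks nothing about the labels, so KO stands for the label. Of 12 macrophage markers all 12 were at level on at least 1 array, of 10 dendritic cell markers 7 were, of 12 neutrophil markers 11, and of 7 measured lymphoid markers 0.

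A ribosome joins a small subunit, which reads the mRNA, to a large subunit, which forms the peptide bond. Cytosolic ribosomal protein mRNAs are very abundant, carry a pyrimidine-rich 5′ end known as the TOP element, and are translated together under control of the mTOR kinase. Mitochondrial ribosomal proteins are also encoded in the nucleus and are imported to build the ribosome that makes the core respiratory chain subunits, some of which carry heme. Mutations that leave red cell precursors short of cytosolic ribosomal proteins cause Diamond-Blackfan anaemia, in which excess free heme has been described.

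The start regions of both gene classes were read from RefSeq (GRCm38.p6), which gave a window of 250 bases before to 50 after an annotated start for 119 of the 140 genes. Those shown run from 40 bases before the start to 20 after it, and were picked to show the pyrimidine run of cytosolic genes and the ETS-type letters of mitochondrial genes, with Mrps10 as a member without a match. Capitals mark, for the first 4 genes, the longest run of at least 8 C or T within 30 bases of the start and, for the mitochondrial genes, CGGAAG or its reverse complement. The windows of the first 4 genes hold CGGAAG too, with 3 matches in Rps6, 4 in Rps18, 1 in Rpl7a and 1 in Rps15a. These were left in small letters, also where they stand in the printed stretches of Rps6 and Rps18.
Rps6 (chr4:86857348-86857407, minus strand): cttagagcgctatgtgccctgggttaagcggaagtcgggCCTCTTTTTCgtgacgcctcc
Rps18 (chr17:33955646-33955705, minus strand): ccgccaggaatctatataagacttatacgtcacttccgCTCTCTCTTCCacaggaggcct
Rpl7a (chr2:26910767-26910826, plus strand): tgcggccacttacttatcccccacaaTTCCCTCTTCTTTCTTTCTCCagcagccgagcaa
Rps15a (chr7:118116128-118116187, minus strand): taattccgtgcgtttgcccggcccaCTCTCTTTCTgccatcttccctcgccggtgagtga
Mrps18a (chr17:46110964-46111023, plus strand): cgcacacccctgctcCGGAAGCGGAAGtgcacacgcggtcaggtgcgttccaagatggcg
Mrps22 (chr9:98601660-98601719, minus strand): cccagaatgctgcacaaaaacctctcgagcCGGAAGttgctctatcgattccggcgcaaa
Mrpl22 (chr11:58171624-58171683, plus strand): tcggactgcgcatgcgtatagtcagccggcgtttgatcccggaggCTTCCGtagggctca
Mrps10 (chr17:47369157-47369216, plus strand): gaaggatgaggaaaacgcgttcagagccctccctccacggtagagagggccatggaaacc

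A pyrimidine run of at least 8 bases near the start stood in 25 of 51 cytosolic genes (49.0%), in 18 of 68 mitochondrial genes (26.5%) and in 25.5% of 15563 genes with a window. CGGAAG, the core bound by ETS factors such as GABP, stood on either strand of the window in 34 of 51 cytosolic (66.7%) and 38 of 68 mitochondrial genes (55.9%), against 24.7% of all genes. The NRF1 motif, GCGCA and GCGC with any base between them, stood in 5 cytosolic (9.80%) and 13 mitochondrial genes (19.1%), against 7.87%. The YY1 core AAGATGGC stood in 3 cytosolic (5.88%) and 12 mitochondrial genes (17.6%), against 3.77%. CACGTG, the E-box bound by Myc, stood in 5 genes of each class (9.80% and 7.35%), against 9.52%. TATAAA stood in 6 cytosolic (11.8%) and 5 mitochondrial genes (7.35%), against 13.6%. TGACTCAGC, a core of the Maf recognition element to which Bach1 binds with small Maf proteins, stood in 0 of 51 cytosolic and 0 of 68 mitochondrial windows, against 0.508% of all genes. All 6 motifs were searched on both strands, none of them contains another, CGGAAG and AAGATGGC can share their AAG, and a match is a description of letters and not of a bound site.

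Signals are linear values after RMA, a normalization that puts arrays on a common scale. The cytosolic genes had a median signal of 3180 and the mitochondrial genes one of 139, each probe set having its own efficiency, so that only differences between arrays are compared. A comparison took in a gene, called at level here, if the brighter of its arrays was at or over the median signal, 30.96. Of the cytosolic genes, 60 of 63 reached it on at least 1 array, and the exceptions were the tissue-restricted paralogues Rpl3l, Rpl10l and Rpl39l. All 77 mitochondrial genes reached it. A gene was called higher or lower at a difference of 1.5-fold or more, or 0.58 on the log2 scale. For scale, the log2 differences of all genes had a robust SD of 0.25 to 0.28. The signals of 10 cytosolic genes and 0 mitochondrial genes lay above 5256.5, near the top of the scale, where a scanner's range can compress differences.

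Cytosolic ribosomal protein genes read slightly higher with heme in both genotypes, and differed little among themselves. In KO cells, 53 of 59 cytosolic genes at level were above 0 with heme, with a median log2 difference of 0.12, where 52.4% of all genes were above 0 and the median was 0.02. In WT cells, 48 of 59 were above 0, with a median of 0.09, where 48.6% of all genes were above 0 and the median was -0.01. These 2 comparisons share no array. The shift was far below the call threshold for nearly every gene: 1 of 59 was at least 1.5-fold higher in KO (5.03% of all genes) and 0 in WT (4.99%), and 0 were lower in either (3.07% and 4.73% of all genes). In either direction 8.1% of all genes passed in KO and 9.71% in WT. In bulk RNA, a change in the mix of cells and a change of RNA per cell cannot be told apart.

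**Figure D1:**
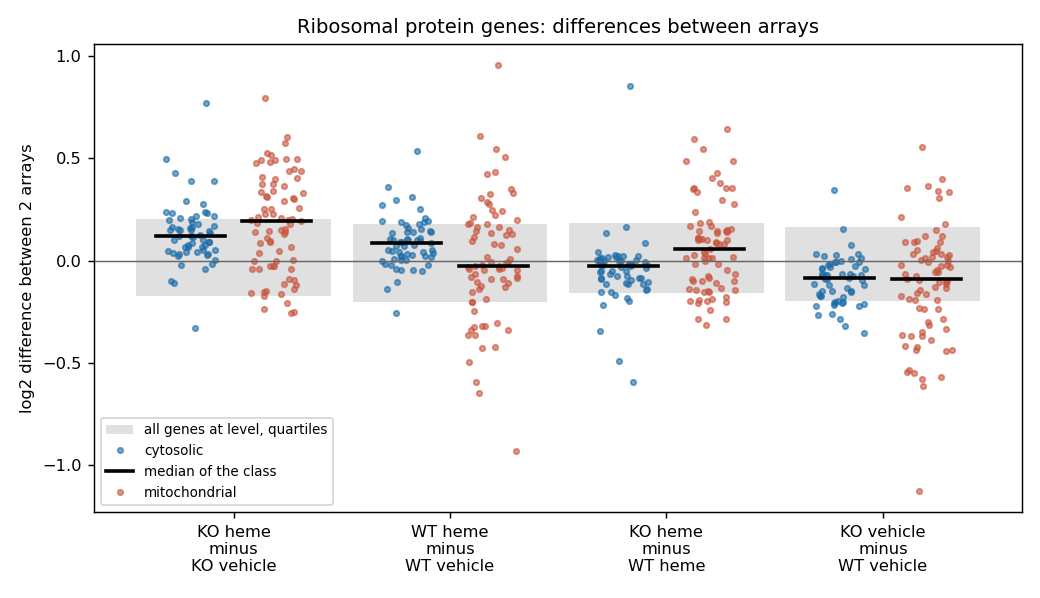
Log2 differences between 2 arrays (vertical axis) for each comparison, 1 point per gene at level, cytosolic left and mitochondrial right in each column. Black bars are class medians and the grey box spans the quartiles of all genes at level. Most cytosolic points lie close together, with a full range from -0.59 to 0.85, while the mitochondrial points spread from -1.12 to 0.95.

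Both heme arrays stood above both vehicle arrays in 33 of 60 cytosolic genes, where 21.4% of all genes did, and below both in 1 of 60, which was Rps19bp1, where 19.5% of all genes did. The size of the shift depended on the scaling. When quantile normalization was applied again, 45 of 59 cytosolic genes were above 0 in KO and 35 of 59 in WT (46.9% and 46.3% of all genes), and both heme arrays stood above both vehicle arrays in 22 of 60, against 2082 of 11155 genes. When differences were centred on signal by lowess, 53 and 56 of 59 were above 0.

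Cytosolic genes with small and with large subunit symbols both took part. In KO the median heme response was 0.12 for 25 small subunit genes and 0.13 for 34 large subunit genes. In WT it was 0.09 for 24 small subunit genes and 0.07 for 35 large subunit genes. Of 18 listed genes of Diamond-Blackfan anaemia, 8 were measured (Rps7, Rps10, Rps19, Rps28, Rps29, Rpl5, Rpl26 and Rpl27). All 8 were above 0 with heme in KO (median 0.13) and in WT (median 0.09), Rps29 in WT by 0.01. That was close to the whole cytosolic class. In the class, 53 of 59 genes were above 0 in KO (median 0.12) and 48 of 59 in WT (median 0.09). Rps19, the gene most often mutated in that disease, read 826 in KO heme, 746 in KO vehicle, 813 in WT heme and 766 in WT vehicle. Its 2 heme values were above its 2 vehicle values, by less than 1.5-fold.

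Rpl24, a large subunit protein at the bridge between subunits, was among the 5 largest increases in both genotypes. It read 3194 in KO heme, 2268 in KO vehicle, 3248 in WT heme and 2649 in WT vehicle, a log2 heme response of 0.49 in KO and 0.29 in WT. The heme arrays were nearly equal and the vehicle arrays apart. Its 3 probe sets gave the same order of arrays.

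Other large increases with heme in KO were those of Rps4l (0.77), Rpl36 (0.43), Rpl14 (0.39) and Rpl9 (0.39). Rpl36 read 2868 in KO heme, 2134 in KO vehicle, 2786 in WT heme and 2460 in WT vehicle, the same order as Rpl24 except that KO heme was the highest. Rps4l read 53.6 in KO heme, 31.5 in KO vehicle, 29.7 in WT heme and 24.8 in WT vehicle, so that 1 array stood apart. The difference of Rps4l fell below 1.5-fold when its 2 probe sets were averaged (0.51).

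In WT the largest increases after heme were those of Rpl12 (0.54), Rpl22 (0.36), Rps3a1 (0.31), Rpl24 and Rps15a (0.27). Rpl12 read 25.02 in KO heme, 21.1 in KO vehicle, 35.2 in WT heme and 24.3 in WT vehicle, near the median signal of the array, and 32 added to each value brought its WT response to 0.26. Rpl22, a large subunit protein that also binds RNA outside the ribosome, read 371 in KO heme, 316 in KO vehicle, 431 in WT heme and 336 in WT vehicle, higher with heme in both genotypes. Rps3a1 went the other way in KO: it read 1317 in KO heme and 1420 in KO vehicle, against 1671 in WT heme and 1347 in WT vehicle. WT heme stood above the other 3 arrays.

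Decreases were few. Rps19bp1 had the lowest heme response in both genotypes, -0.33 in KO and -0.26 in WT, reading 152 in KO heme, 192 in KO vehicle, 168 in WT heme and 201 in WT vehicle. After it came Rps3a1 (-0.11), Rpl32l (-0.10), Rplp2 (-0.04) and Rpl27a (-0.02) in KO. In WT these were Rpl34 (-0.14), Rpl7l1 (-0.11), Rpl23a (-0.05) and Rpl8 (-0.05). The sign differed between probe sets for Rpl27a in KO (9 probe sets, -0.02 to 0.11) and for Rpl23a in WT (13 probe sets, -0.07 to 0.03).

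The 3 proteins of the ribosomal stalk, which recruits elongation factors, had small responses. Rplp0 read 3977 in KO heme, 3587 in KO vehicle, 3984 in WT heme and 4048 in WT vehicle. Rplp1 read 6809 in KO heme, 6618 in KO vehicle, 7178 in WT heme and 6924 in WT vehicle. Rplp2 read 223 in KO heme, 229 in KO vehicle, 245 in WT heme and 206 in WT vehicle. None of the 3 stalk genes was past 1.5-fold in any of the 4 comparisons. Rpsa, a small subunit protein also known as a laminin receptor, read 4536 in KO heme, 4139 in KO vehicle, 5144 in WT heme and 4495 in WT vehicle. Rpl5, which binds 5S rRNA and can hold the p53 regulator MDM2, read 2595 in KO heme, 2309 in KO vehicle, 2591 in WT heme and 2351 in WT vehicle. In Rpsa and Rpl5 both heme arrays were above both vehicle arrays.

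Rps6, the substrate of S6 kinase, read 3361 in KO heme, 2931 in KO vehicle, 3744 in WT heme and 3401 in WT vehicle, so that KO heme was just below WT vehicle. Rps27l, a paralogue of Rps27 that p53 induces, read 815 in KO heme, 726 in KO vehicle, 816 in WT heme and 839 in WT vehicle. KO vehicle was the lowest array at both genes. Among 38 cytosolic genes with 2 or more probe sets at level, the log2 heme response of the probe sets of a gene spanned a median of 0.07 in KO and 0.05 in WT, and its sign differed between them in 3 and 6 genes. Probe sets of a gene read the same RNA, so this spread holds no error between cultures.

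The mitochondrial class read higher with heme in KO and near 0 in WT, a difference that could not be tested with 1 array per group. In KO, 55 of 77 mitochondrial genes were above 0 with heme, with a median of 0.20 (52.4% of all genes, median 0.02). In WT, 34 of 77 were above 0, with a median of -0.03 (48.6% of all genes, median -0.01). The gene-by-gene difference of the responses, KO minus WT, had a median of 0.20 and was above 0 in 55 of 77 genes, where 54.4% of all genes were above 0 and their median was 0.03. For the cytosolic class it had a median of 0.05 and was above 0 in 36 of 60 genes. At 1.5-fold, 8 of 77 mitochondrial genes had the higher response in KO and 1 the lower, where 6.27% and 5.15% of all genes did, and 0 of 60 cytosolic genes did either. The 8 were Mrps34 (0.87), Mrpl13 (0.85), Mrpl54 (0.81), Mrpl16 (0.75), Mrps18b (0.71), Mrpl35 (0.68), Mrpl45 (0.63) and Mrps18a (0.63), and the other was Mrpl22 (-0.64). In Mrpl54, Mrpl13 and Mrps18b the WT decrease made up most of this value, and in Mrpl45 and Mrps18a the KO increase did. The cytosolic median was above the mitochondrial one by 0.11 in WT and below it by 0.08 in KO. Each of these 2 differences of medians kept its sign under the scalings, level filters, pseudocount and probe set rules tried, between 0.07 and 0.14 in WT and between -0.11 and -0.03 in KO. Among 8 mitochondrial genes with 2 or more probe sets at level, the sign of the heme response differed between probe sets in 1 in KO and 4 in WT. Their responses spanned a median of 0.11 in KO and 0.15 in WT, and up to 0.53 and 0.44.

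**Figure D2:**
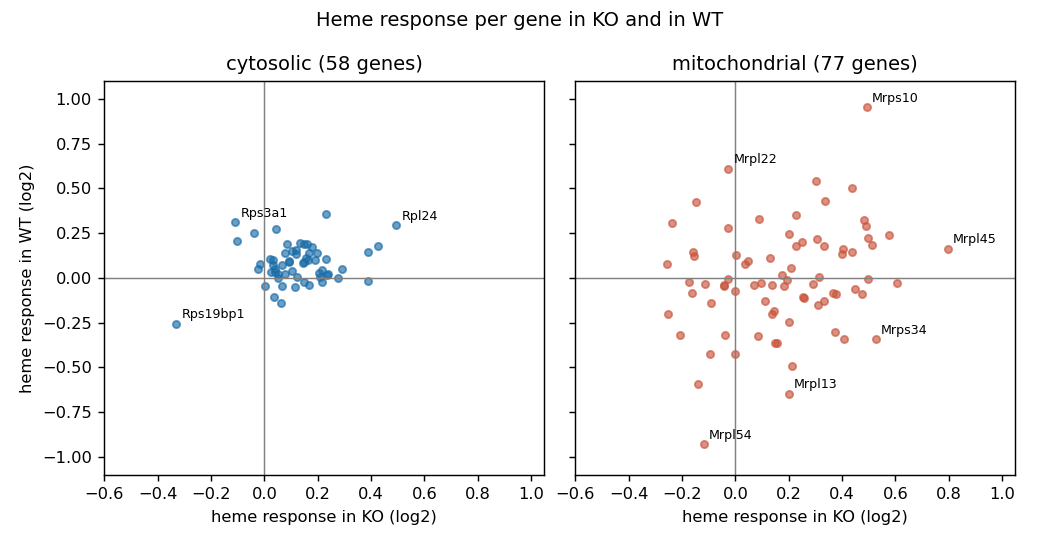
Heme response (log2, heme minus vehicle) in KO on the horizontal axis and in WT on the vertical axis, 1 point per gene at level in both comparisons. The 77 mitochondrial points lie mostly right of 0 and on both sides of 0 vertically, while 42 of 58 cytosolic points lie above 0 on both axes.

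Across genes the responses of the genotypes, which share no array, were weakly related. Pearson's r was 0.25 over 77 mitochondrial genes (Spearman's rho 0.23) and 0.22 over 58 cytosolic genes (rho 0.06), against 0.46 over 10460 genes (rho 0.34). All points come from the same 4 arrays, and genes are not independent replicates. Of the mitochondrial genes, 27 were above 0 in both genotypes, 15 below 0 in both, 28 above 0 in KO and below 0 in WT, and 7 the reverse.

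With heme in KO, 2 of 77 mitochondrial genes were at least 1.5-fold higher and 0 lower, where 5.03% and 3.07% of all genes were. These were Mrpl45 (0.80), a large subunit protein that sits at the exit tunnel, and Mrps18a (0.61). Mrpl45 read 88.1 in KO heme, 50.7 in KO vehicle, 82.2 in WT heme and 73.4 in WT vehicle. Mrps18a read 265 in KO heme, 174 in KO vehicle, 250 in WT heme and 254 in WT vehicle. In both genes KO vehicle stood below 3 arrays that lay close together.

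The next increases in KO were Mrpl51 (0.57), Mrps34 (0.53) and Mrpl43 (0.51). Mrpl51 read 723 in KO heme, 485 in KO vehicle, 673 in WT heme and 569 in WT vehicle, higher with heme in both genotypes, and the lower of its 2 probe sets gave 0.29 in KO. Mrps34 read 116 in KO heme, 80.8 in KO vehicle, 86.5 in WT heme and 110 in WT vehicle, opposite in the genotypes. The largest decreases in KO were small: Mrps17 (-0.26), Mrps24 (-0.25), Mrps12 (-0.24), Mrpl41 (-0.21) and Mrps14 (-0.17).

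With heme in WT, 2 of 77 mitochondrial genes were at least 1.5-fold higher and 3 lower, where 4.99% and 4.73% of all genes were. Mrps10, a small subunit protein with a bacterial counterpart, had the largest increase (0.95) and read 93.0 in KO heme, 66.2 in KO vehicle, 99.7 in WT heme and 51.4 in WT vehicle. Both heme values were above both vehicle values. Mrpl22 (0.61) read 73.8 in KO heme, 75.2 in KO vehicle, 78.2 in WT heme and 51.2 in WT vehicle, so that WT vehicle alone was low. Mrpl14 (0.54), Mrpl19 (0.50) and Mrpl46 (0.43) followed.

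Mrpl54, a large subunit protein with no bacterial counterpart, had the largest decrease in WT (-0.93). It read 103 in KO heme, 112 in KO vehicle, 128 in WT heme and 243 in WT vehicle. WT vehicle stood 1.90-fold above WT heme and 2.18-fold above KO vehicle, so 1 array sets both of its large differences. Mrpl13 (-0.65) read 167 in KO heme, 145 in KO vehicle, 136 in WT heme and 213 in WT vehicle. Mrpl36 (-0.60) read 235 in KO heme, 258 in KO vehicle, 221 in WT heme and 333 in WT vehicle. At both genes WT vehicle was again the highest array. Mrps18b (-0.49) and Mrpl20 (-0.43) came next.

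**Figure D3:**
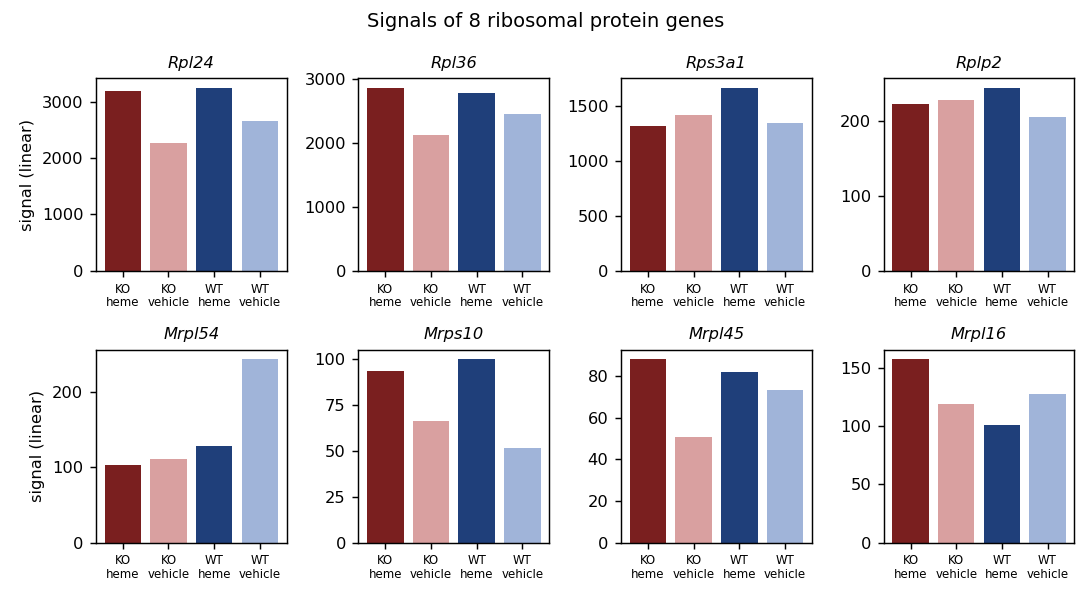
Linear signals of 4 cytosolic (top) and 4 mitochondrial genes (bottom) on the 4 arrays, 1 bar per array, each axis starting at 0 with its own scale. Rpl24 and Rpl36 are lowest in KO vehicle, Mrpl54 is high in WT vehicle (243), and Mrpl45 is low in KO vehicle (50.7).

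The shift in KO was shared by mitochondrial genes with small and with large subunit symbols. The median heme response was 0.18 for 29 Mrps genes and 0.20 for 48 Mrpl genes. In WT the medians were -0.02 and -0.03. The Mrps genes include Mrps36, and a symbol need not name the subunit that holds the protein. The 44 genes listed here as having a bacterial counterpart had a median of 0.15 in KO and -0.03 in WT. The 33 genes not listed had a median of 0.23 in KO and -0.01 in WT. They include Mrps36, Mrpl47, Mrps18a and Mrps18b, and so are not a clean set of genes without a counterpart. The spread across genes, 0.24 (SD) in KO and 0.30 in WT, was wider than the 0.16 and 0.12 of the cytosolic class. It was narrower than the 0.35 and 0.38 of all genes at level. The cytosolic genes were also brighter (median signal 3180 against 139), and the spreads were not compared at equal signal.

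Members with a separate known role varied. Mrpl12, the stalk protein that also binds the mitochondrial RNA polymerase, read 213 in KO heme, 195 in KO vehicle, 194 in WT heme and 179 in WT vehicle, with heme responses of 0.13 and 0.11. Mrps12, of the decoding centre, read 193 in KO heme, 228 in KO vehicle, 222 in WT heme and 180 in WT vehicle, opposite in the genotypes. Mrpl44, an RNase III-like protein, read 112 in KO heme, 125 in KO vehicle, 120 in WT heme and 108 in WT vehicle. Mrps7 read 182 in KO heme, 158 in KO vehicle, 137 in WT heme and 163 in WT vehicle. Mrps16 read 286 in KO heme, 318 in KO vehicle, 319 in WT heme and 293 in WT vehicle. Mrps22 read 109 in KO heme, 77.6 in KO vehicle, 106 in WT heme and 86.8 in WT vehicle, and Mrpl3 read 149 in KO heme, 159 in KO vehicle, 133 in WT heme and 179 in WT vehicle. Of these 7 genes, Mrps22 was the one with both heme values above both vehicle values.

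In vehicle, KO was slightly below WT for both classes. Of the cytosolic genes, 49 of 58 were below 0 and 9 above, with a median log2 difference of -0.09, where 47.3% of all genes were above 0 and the median was -0.02. Of the mitochondrial genes, 27 of 77 were above 0, with a median of -0.09, so the classes differed by 0.01. At 1.5-fold, 0 of 58 cytosolic genes were higher or lower, and 0 of 77 mitochondrial genes were higher and 2 lower, where 3.25% and 4.31% of all genes were, or 7.56% in either direction. Applying quantile normalization again left 20 of 58 cytosolic genes above 0 (49.9% of all genes), and lowess centring 22 of 58, with medians of -0.02 in both.

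The 2 mitochondrial genes past the threshold in vehicle were Mrpl54 (-1.12) and Mrps2 (-0.61). Mrps2 read 120 in KO heme, 92.8 in KO vehicle, 133 in WT heme and 142 in WT vehicle. Mrps23 (-0.58), Mrpl28 (-0.57) and Mrpl13 (-0.55) came just below it. On the other side stood Mrpl22 (0.55), Mrpl15 (0.40), Mrps10 (0.36), Mrps28 (0.35) and Mrps12 (0.34). The cytosolic extremes in vehicle were Rpl10a (-0.36), Rpl14 (-0.32), Rpl32l (-0.28), Rpl21 (-0.27) and Rps25 (-0.26), and Rps4l (0.34), Rplp2 (0.15), Rps3a1 (0.08), Rpl26 (0.03) and Rps15a (0.03). The 9 probe sets of Rpl21 ran from -0.31 to 0.01.

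With heme in both cultures, the classes lay on opposite sides of 0. The cytosolic median of KO against WT was -0.03, with 16 of 60 genes above 0, and the mitochondrial median was 0.06, with 47 of 77 above 0, where 52% of all genes were above 0 and the median was 0.01. At 1.5-fold, 1 of 60 cytosolic genes was higher (Rps4l, 0.85) and 1 lower (Rpl32l, -0.59), and 2 of 77 mitochondrial genes were higher (Mrpl16, 0.64, and Mrpl50, 0.60) and 0 lower, where 3.38% of all genes were higher and 3.43% lower, or 6.81% in either direction. The other probe set of Rps4l, which was below the level filter, gave 0.03 (30.1 in KO heme and 29.5 in WT heme). The cytosolic count above 0 became 29 of 60 with quantile normalization applied again and 20 of 60 with lowess, and the mitochondrial one 47 and 41 of 77. Mrpl16 read 158 in KO heme, 119 in KO vehicle, 101 in WT heme and 128 in WT vehicle. Mrpl50 read 130 in KO heme, 95.6 in KO vehicle, 85.7 in WT heme and 77.4 in WT vehicle, with both KO values above both WT values.

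Next among the mitochondrial genes were Mrpl35 (0.54), Mrps31 (0.49) and Mrpl38 (0.48). Mrpl54 (-0.31), Mrps26 (-0.29), Mrpl11 (-0.28), Mrpl37 (-0.24) and Mrpl28 (-0.21) were the lowest. The cytosolic genes that followed Rpl32l were Rpl12 (-0.49), Rps3a1 (-0.34), Rpl22 (-0.22) and Rps15a (-0.20). Those that followed Rps4l were Rpl7l1 (0.17), Rpl34 (0.13), Rpl14 (0.08) and Rpl36 (0.04).

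One array recurs in these comparisons. KO vehicle was the lowest of the 4 arrays at 46 of 60 cytosolic genes and at 31 of 77 mitochondrial genes, where it was the lowest at 27.2% of all genes. KO heme was the highest at 32 of 77 mitochondrial genes (25.9% of all genes), and WT heme the highest at 38 of 60 cytosolic genes (23.6%). WT heme was the lowest at 2 of 60 cytosolic and 19 of 77 mitochondrial genes (26.1%). The median deviation of cytosolic genes from their own mean was 0.03 in KO heme, -0.09 in KO vehicle, 0.07 in WT heme and -0.00 in WT vehicle. For mitochondrial genes it was 0.08, -0.07, 0.02 and 0.01 in the same order. The heme response in KO and the genotype difference in vehicle both use the KO vehicle array, so they are not separate observations. With quantile normalization applied again, KO vehicle was the lowest at 31 of 60 cytosolic genes (51.7%) and 27 of 77 mitochondrial genes (35.1%), against 23.8% of all genes.

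**Figure D4:**
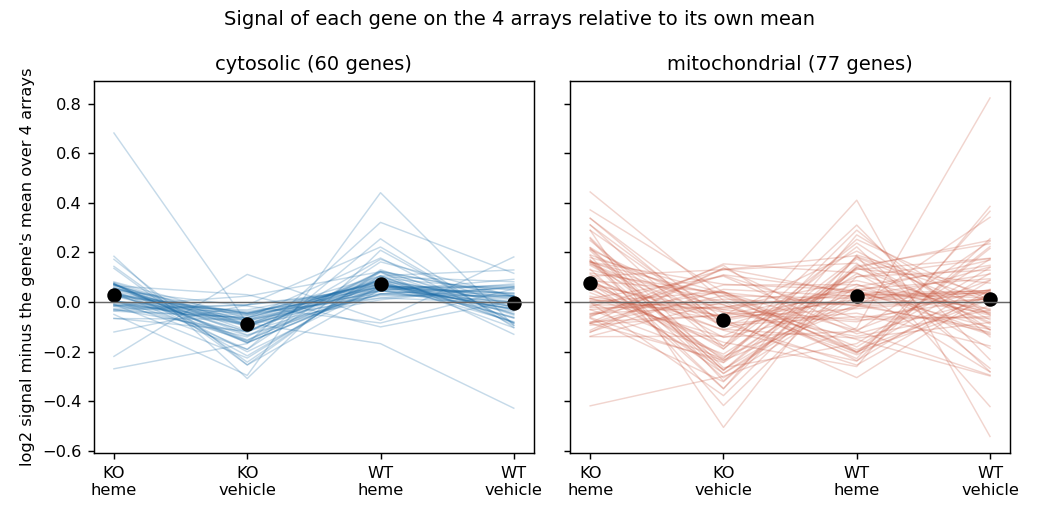
Log2 signal minus the gene's mean over the 4 arrays (vertical axis) on each array, 1 line per gene and black dots for class medians. KO vehicle has the lowest median in both classes (-0.09 cytosolic, -0.07 mitochondrial).

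Markers of other cells also differed between the arrays. Neutrophil markers summed to a signal of 9820 in KO heme, 7361 in KO vehicle, 12547 in WT heme and 9186 in WT vehicle. The share at least 1.5-fold up after heme was 2 of 11 in KO (5.03% of all genes) and 6 of 10 in WT (4.99%). Most of that sum came from S100a8 (4381 in KO heme, 3213 in KO vehicle, 5613 in WT heme and 4243 in WT vehicle) and S100a9 (3989, 2933, 5186 and 3906 in the same order). Over the 11 neutrophil markers at level, KO vehicle was the lowest array at 3 and WT vehicle at 8, with median deviations of 0.07 in KO heme, -0.11 in KO vehicle, 0.40 in WT heme and -0.32 in WT vehicle. The 3 that were lowest in KO vehicle were S100a8, S100a9 and Ly6g. Macrophage markers summed to 20520 in KO heme, 20816 in KO vehicle, 19454 in WT heme and 21697 in WT vehicle, a sum of which Lyz2 made up 9990 to 10705. With heme in WT, 6 of 12 macrophage markers were 1.5-fold lower (4.73% of all genes) and 1 higher (Cd14, 0.83, where 4.99% of all genes were). With heme in KO 1 was lower (3.07% of all genes). In vehicle, 4 of 12 were lower in KO (4.31% of all genes), namely C1qa (-2.80), C1qc (-2.42), C1qb (-1.996) and Fcgr1 (-1.48). Dendritic cell markers summed to 2959 in KO heme, 3609 in KO vehicle, 8433 in WT heme and 10741 in WT vehicle. Of 7 at level, 6 were 1.5-fold lower in KO in both treatments (4.31% of all genes in vehicle and 3.43% with heme). No marker was at 0, which RMA does not give. The part of the cell mix in the ribosomal protein differences was not tested.

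Genes that work with the ribosomal proteins were described in the same way. Cytosolic initiation and elongation factors had a median heme response of 0.11 in KO, with 3 of 40 at least 1.5-fold higher (5.03% of all genes), and of 0.06 in WT, with 0 of 39 (4.99% of all genes). The list also holds Naca, Btf3 and Tpt1, which are not themselves initiation or elongation factors. A count of 3 of 40 is near the share of all genes. The 3 were the initiation factor subunits Eif3d (407 in KO heme and 235 in KO vehicle), Eif3m (376 and 243) and Eif2b2 (138 and 89.9). Fau, which encodes a small subunit protein outside the symbol rule, had responses of 0.15 in KO and 0.11 in WT. The 4 measured mitoribosome components outside the rule did not share the mitochondrial shift in KO: their median heme response was -0.05 in KO, with 3 of 4 below 0, and -0.08 in WT, also with 3 of 4 below 0. In KO the values were -0.11 for Dap3, -0.05 for Chchd1, -0.05 for Gadd45gip1 and 0.10 for Ptcd3.

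Ribosome biogenesis factors had a median of 0.07 in KO and -0.11 in WT. In KO, 3 of 64 were higher, namely the snoRNP protein gene Dkc1 (0.83), the RNA polymerase I and III subunit gene Polr1c (0.77) and Gnl2 (0.60), and 1 was lower, Nhp2 (-0.60), where 5.03% and 3.07% of all genes were. In WT, Dimt1 was higher (1.15) and Nop58 (-0.69) and Heatr1 (-0.59) were lower, of 65, where 4.99% and 4.73% of all genes were. These counts are near or below the shares of all genes. Myc, the transcription factor that drives many of these genes, read 288 in KO heme, 371 in KO vehicle, 429 in WT heme and 600 in WT vehicle. It was lower with heme in each genotype and lower in KO in each treatment.

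Factors for mitoribosome assembly and rRNA handling had a median of 0.32 in KO, with 5 of 23 at least 1.5-fold higher (5.03% of all genes), and of -0.04 in WT, with 2 of 23 higher and 1 lower (4.99% and 4.73% of all genes). In KO these were Metap1d (0.94), Mterf4 (0.81), the rRNA methyltransferases Tfb1m (0.66) and Mrm3 (0.65), and Mterf3 (0.59). Metap1d is on the list but encodes a mitochondrial methionine aminopeptidase, not a known assembly or rRNA factor. Mterf4, which targets a methyltransferase to the mitochondrial ribosome, read 50.2 in KO heme, 28.7 in KO vehicle, 20.2 in WT heme and 36.0 in WT vehicle, with opposite responses in the genotypes (0.81 and -0.83) and values near the level filter. Mitochondrial translation factors and tRNA synthetases had medians of 0.03 in KO and 0.00 in WT. Slirp, an RNA-binding partner of Lrpprc that stabilises mitochondrial mRNAs, was the largest increase of that list in KO (0.89), reading 699 in KO heme, 376 in KO vehicle, 619 in WT heme and 426 in WT vehicle.

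**Figure D5:**
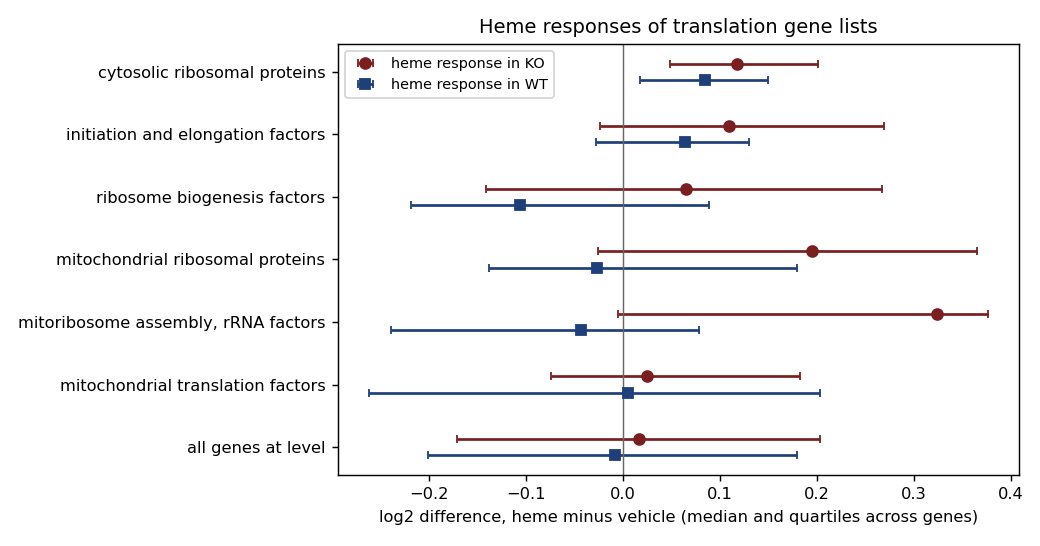
Median heme response (log2) of each list with its quartiles across genes, circles for KO and squares for WT. The largest KO median is that of the mitoribosome assembly factors (0.32), and both cytosolic ribosomal protein medians are above 0.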

How the data were processed

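The authors processed the 4 arrays with RMA before deposit, per the submitters' processing notes, and the deposited values are intensities on a linear scale. The sources used here do not give a version or detection calls, and distance from background is therefore unknown. The series' design text describes sorted progenitors and does not match the sample labels, which were followed. Values were taken to log2 and arrays subtracted. Of 35556 probe sets, 21789 had a single symbol, for 19938 genes, and 21698 of these probe sets were matched by Entrez number to RefSeq (GRCm38.p6), the source of the sequences. Probe sets with several symbols were left out, so a ribosomal protein gene that has no other is not analysed here. No model was fitted, since each group holds 1 array. All members and lists were chosen with earlier results of these data known. Genes named are, in each class and comparison, the 5 highest and 5 lowest differences at level, plus 32 fixed genes, 25 of them measured. Array medians lay between 30.4 and 31.4 and pairs of arrays correlated with r of 0.975 to 0.981. Alternatives were other folds, level filters, scalings, a pseudocount, probe set rules and symbols, and leaving out bright members. Scripts ran on matplotlib 3.10.9, statsmodels 0.14.6, pandas 2.3.3, numpy 2.4.6 and Python 3.11.15.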

Additional observations from a re-analysis of the deposited data

Results flagged for a closer look

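The heme response had opposite signs in the 2 genotypes for the median of several lists, with 1 array per group, so the difference was not tested. The medians of all genes at level had opposite signs too, 0.02 in KO and -0.01 in WT. Several WT list medians were near 0, such as -0.02 for the mitochondrial genes with small subunit symbols. The difference of the list medians, KO minus WT, was 0.22 for all mitochondrial ribosomal protein genes. It was 0.21 for those with small subunit symbols and 0.23 for those with large subunit symbols. It was 0.18 for those listed as having a bacterial counterpart and 0.23 for those not listed. It was 0.17 for ribosome biogenesis factors and 0.37 for mitoribosome assembly and rRNA factors. All 7 differences rest on the same 4 arrays.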

How the results depend on the processing

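No paired analysis was possible because each group holds 1 array. The calls at 1.5-fold are few and turn on the threshold, for which 2-fold and a lower one, a log2 difference of 0.32, were tried. The cause of each change below was not tested. For the cytosolic genes, the count called in the heme response in KO (1) became 0 at 2-fold, at the 75th percentile level filter, with 32 added, with probe sets averaged, without the 6 genes not known as subunits and with single-probe-set genes, and 6 at the lower threshold. Their count in WT (0) became 2 at the lower threshold and 1 with no level filter (Rpl39l), and the vehicle genotype count (0) became 3 at the lower threshold. Their genotype count with heme (2) became 0 at 2-fold, with 32 added and without the 6 genes, 1 at the 75th percentile filter, with quantile normalization, with averaging and with single-probe-set genes, and 4 at the lower threshold. For the mitochondrial genes, the WT count (5) became 0 at 2-fold, 20 at the lower threshold, 3 at the 75th percentile filter and 2 with 32 added. Their KO count (2) became 0 at 2-fold and with 32 added, 23 at the lower threshold, and 1 at the 75th percentile filter, with quantile normalization and with lowess. Their vehicle genotype count (2) became 1 at 2-fold and with 32 added, and 24 at the lower threshold. Their genotype count with heme (2) became 0 at 2-fold and with 32 added, 13 at the lower threshold and 1 with lowess.

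The cytosolic median moved in the KO heme response (0.12) to 0.0574 with quantile normalization and to 0.0652 with single-probe-set genes, and in the vehicle genotype difference (-0.09) to -0.0232 with quantile normalization and -0.0209 with lowess. The cytosolic KO minus WT median (0.05) turned to -0.00445 with lowess and -0.0304 with single-probe-set genes. The mitochondrial one (0.20) moved to 0.15 with 32 added and otherwise stayed between 0.15 and 0.24. The cytosolic minus mitochondrial median in vehicle (0.01) turned to -0.0114 with 32 added, -0.0332 with averaging and -0.00437 without the 6 genes. The other 130 medians moved by 0.05 or less and kept their sign. Of the single-gene values, 21 fell below 1.5-fold under an alternative, 3 (Rpl12, Rpl3l and Rpl10l, with 32 added) moved by more than 0.26, and none that was called turned its sign. Symbols of the annotation were the same as those of RefSeq. Leaving out non-subunits and genes with several probe sets was chosen after seeing the data.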
